A study of Mus musculus with 13 samples.

Results

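The let-7 family of microRNAs (miRNAs) was examined across vesicle libraries of a mouse cachexia model. The members were the deposited mature mouse (mmu) miRNAs let-7a, b, c, d, e, f, g and i from the 5′ arm of their hairpins, the 3′ arm product let-7d-3p, and miR-98-5p, which has the let-7 seed. These are 10 of the 1452 miRNAs named in the deposited tables, and all 10 were in both tables. They were chosen by name and not by a measured value.

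The material was from Balb/C mice or from C26 cells, a colon adenocarcinoma line. Vesicles from serum-free medium conditioned by C26 cells for 48 h, called TMVs in the labels, gave 3 libraries. Plasma vesicles gave 6 libraries from mice labelled cachectic and killed on day 14 after subcutaneous inoculation with C26 cells, and 4 libraries from mice labelled healthy. The labels give no age or sex for the mice, and they do not say whether the libraries are of separate animals or cultures. The p-values therefore measure spread among libraries, which may be technical.

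Let-7 miRNAs guide Argonaute proteins to transcripts that pair with the seed, bases 2 to 8 of the miRNA, and lower the output of those transcripts. Known targets include Ras genes, Hmga2, Lin28a and Myc, and let-7 is widely described as a brake on proliferation and a promoter of differentiation. Lin28 proteins bind let-7 precursors and block their maturation. In most hairpins of the family the 5′ arm is the strand that is kept.

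The sequences below, from the RefSeq table for GRCm38.p6, are shown because the members differ at so few bases, and the seed is in capitals.
mmu-let-7a-5p: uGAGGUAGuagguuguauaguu
mmu-let-7b-5p: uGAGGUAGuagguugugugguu
mmu-let-7c-5p: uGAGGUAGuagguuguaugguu
mmu-let-7d-5p: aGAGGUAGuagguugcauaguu
mmu-let-7e-5p: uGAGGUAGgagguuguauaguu
mmu-let-7f-5p: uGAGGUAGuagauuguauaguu
mmu-let-7g-5p: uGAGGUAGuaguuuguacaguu
mmu-let-7i-5p: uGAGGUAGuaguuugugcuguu
mmu-miR-98-5p: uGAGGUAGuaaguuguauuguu
mmu-let-7d-3p: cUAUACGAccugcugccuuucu

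All 10 members matched that table, and 9 of them share the seed GAGGUAG, while let-7d-3p has the seed UAUACGA. Counted from the 5′ end, let-7c differs from let-7a by A19G, let-7e by U9G and let-7f by G12A. Let-7b differs from let-7a by A17G and A19G, let-7d-5p by U1A and U16C, let-7g by G12U and U18C, miR-98 by G11A and A19U, and let-7i by G12U, A17G, U18C and A19U. Among the 36 pairs of seed-sharing members, 4 pairs differ at 1 position and the most distant pair at 6. The assignment of reads that fit several of these sequences is not stated in the labels, so counts of near-identical members are uncertain against each other. Only 2 other names of the 1679 in the table carry the seed, let-7k with 4 counts over all 13 libraries and miR-1961 with 0.

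The let-7d hairpin gives both of its arms as members. It lies on the minus strand at chr13:48536012-48536114 (GRCm38), within an exon of the lincRNA 6720427I07Rik. It is shown 5′ to 3′ with the 5p product at positions 16 to 37 and the 3p product at positions 70 to 91 in capitals. It is given because the balance of these arms differed widely among the plasma libraries, although the tumour groups overlapped.
let-7d hairpin: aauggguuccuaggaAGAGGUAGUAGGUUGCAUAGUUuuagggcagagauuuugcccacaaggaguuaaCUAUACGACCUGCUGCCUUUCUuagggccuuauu

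Exons of the same lincRNA also hold Mirlet7f-1 at chr13:48537829-48537917, which is 1714 bases from Mirlet7d, and Mirlet7a-1 at chr13:48538179-48538272. Mirlet7c-2 and Mirlet7b lie 621 bases apart in Lncppara on chromosome 15, and Mirlet7f-2 and Mir98 lie 785 bases apart in an intron of Huwe1 on chromosome X. Mirlet7c-1 follows Mir99a in an intron of Mir99ahg on chromosome 16, Mirlet7e lies between Mir99b and Mir125a in Spaca6 on chromosome 17, and Mirlet7a-2 lies with Mir100 and Mir125b-1 on chromosome 9. Mirlet7g is in an intron of Wdr82 on chromosome 9, and Mirlet7i is in an exon of D630033A02Rik on chromosome 10.

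The depth and the make-up of the libraries bear on every value. The deposited counts summed to 112357 to 170571 in the TMV libraries, 9828 to 76376 in C26-bearing plasma and 7962 to 131385 in control plasma. A single miRNA, miR-5119, took 26.6% to 58.7% of counts in replicates 1 to 4 and 2.55% and 0.332% in replicates 5 and 6 of the C26-bearing group, 46.1% in control replicate 4 and at most 0.819% in the other controls. The 5 libraries over 20% are called miR-5119-rich here, and their descriptions carry the consecutive numbers S18 to S22, while the other 5 plasma libraries carry S15 to S17, S23 and S24. The split was made after the values were seen, it crosses the tumour groups unevenly, and the labels do not say what the numbers mean. Red cell miRNAs of a list of 5, of which 4 were in the tables, summed to 3.38% to 8.12% of counts in the miR-5119-rich libraries. In the other plasma libraries they summed to 19.5% to 52.7%, with none of the 4 at 0. Of the 4, only miR-486a-5p did not overlap between these libraries on TMM-scaled CPM. In TMVs 3 of 5 listed epithelial miRNAs (the miR-200 family) were at 0, and the 5 summed to at most 0.00136% of counts, although the line is labelled a colon adenocarcinoma.

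The family held a far larger share of TMV counts than of plasma counts. The 10 members took 25.8% to 27.2% of each TMV library, with a mean of 26.7% ± 0.742 (SD, n = 3). They took 6.40% ± 1.19 (SD, n = 6) of C26-bearing plasma, from 4.86% to 8.41%, and 5.43% ± 1.62 (SD, n = 4) of control plasma, from 4.11% to 7.72%. The TMV share was thus 4.17 times the C26-bearing and 4.91 times the control share, with no overlap, while both plasma groups overlapped. With miR-5119 taken out of the totals, the plasma means were 9.66% in C26-bearing and 6.33% in control mice. On TMM-scaled CPM, which do not add up to a fixed total per library, the means were 14.8% in TMVs, 8.54% in C26-bearing and 6.20% in control plasma. On that scale TMVs and C26-bearing plasma overlapped, since C26-bearing replicate 3 lay above TMV replicate 1. The number of vesicles and the miRNA content of each cannot be told apart in such libraries. No test was made on this sum, since it is a score over chosen members.

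Let-7c-5p and let-7i-5p led the TMV profile. Let-7i ranked 1 or 2 and let-7c ranked 1 to 3 by count in each of the 3 TMV libraries. Mmu-let-7c-5p made up 7.22%, 6.44% and 5.44% of counts in TMV replicates 1 to 3, against a lowest, median and highest share of 0.214%, 0.342% and 0.645% in C26-bearing plasma and 0.578%, 0.556%, 0.814% and 0.301% in control replicates 1 to 4. Every TMV library lay above every plasma library by a wide margin. Mmu-let-7i-5p made up 6.87%, 8.76% and 8.79% of TMV counts, against 1.38%, 2.06% and 3.31% (lowest, median and highest) in C26-bearing plasma and 1.09%, 1.38%, 3.01% and 1.19% in control plasma. Mmu-let-7e-5p, a minor member, made up 0.297%, 0.250% and 0.264% of TMV counts, against 0.00518%, 0.0270% and 0.0527% in C26-bearing plasma and 0.0190%, 0.00359%, 0.0213% and 0.0251% in control plasma. For let-7e the plasma values rest on 1 to 28 counts per library.

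In all, 8 of the 10 members had a larger share in all 3 TMV libraries than in all 10 plasma libraries. Over the 207 miRNAs tested, 38.6% did so. On TMM-scaled CPM 2 members did so, let-7c and let-7e, as did 22.7% of the 207 miRNAs. The exceptions in share were miR-98-5p, at 0.0328% to 0.0410% of TMV counts and 0% to 0.0377% of plasma counts, and let-7d-3p.

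These differences were tested in an edgeR quasi-likelihood fit of all 13 libraries. Against control plasma, 50.7% of the 207 miRNAs passed at an adjusted p of 0.05, 21.7% as higher in TMVs, and 4 of the 10 members did so, all 4 higher. Let-7e had a log2 fold change of 2.96 ± 0.83 (SE; edgeR adjusted p = 0.00836) and let-7c one of 2.47 ± 0.48 (edgeR adjusted p = 0.000873). Let-7f rose by 1.83 ± 0.55 (edgeR adjusted p = 0.0125) and let-7i by 1.32 ± 0.52 (edgeR adjusted p = 0.0459). The call for let-7i was lost without TMV replicate 2 or 3 and without control replicate 1, 2 or 4, with an edgeR adjusted p of 0.0785 to 0.144 and values of at most 1.37. That for let-7f was lost without control replicate 3, at 1.49 (edgeR adjusted p = 0.0604). The other members did not pass: the log2 fold change was 0.78 for let-7a, 1.01 for let-7b, 1.19 for let-7d-5p, 0.87 for let-7g, 0.17 for miR-98 and -3.47 ± 1.47 for let-7d-3p (edgeR adjusted p = 0.0624). Let-7d-3p passed as lower without control replicate 4, at -3.86 (edgeR adjusted p = 0.0278). Against the control libraries poor in miR-5119, in a fit without the rich ones, it was -3.76. Both fits leave out the control in which let-7d-3p is lowest, and the split was made after the values were seen. They are therefore no independent support for a lower level in TMVs.

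Against C26-bearing plasma, 49.8% of the 207 miRNAs passed, 20.8% as higher in TMVs, and 2 of the 10 members passed, both higher. Let-7c had a log2 fold change of 2.72 ± 0.42 (edgeR adjusted p = 0.000152) and let-7e one of 2.05 ± 0.70 (edgeR adjusted p = 0.0215), and let-7e did not pass without TMV replicate 3 (edgeR adjusted p = 0.0502) or against the plasma libraries poor in miR-5119 alone, at 1.49 (edgeR adjusted p = 0.0951). The log2 fold changes of the others were 1.57 for let-7b, 0.77 for let-7d-5p, 0.65 for let-7i, 0.46 for let-7f, 0.09 for let-7g, -0.32 for let-7a, -0.43 for miR-98 and -2.65 for let-7d-3p. The value of let-7d-3p depended on the libraries and model. It was -0.88 without C26-bearing replicate 6 (edgeR adjusted p = 0.445), -0.39 in limma voom (limma adjusted p = 0.616) and -0.07 with a replicate block (edgeR adjusted p = 0.948). Against the C26-bearing libraries poor in miR-5119 alone it was -3.95. That fit keeps only the C26-bearing libraries in which let-7d-3p is highest, so it is no independent support. Both contrasts share the TMV libraries. The log2 fold change was above 0 for 9 members against control plasma, where it was so for 48.3% of the 207 miRNAs, and for 7 against C26-bearing plasma, where it was so for 47.3%.

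The scaling sets the size of these values. The fit used TMM factors, under which the median log2 fold change of all 207 miRNAs was -0.06 against control and -0.31 against C26-bearing plasma, while scaling by library totals alone put that median at 0.92 and 0.81. Measured from the median of all miRNAs, the median of the 10 members was 1.16 higher with TMM and 1.21 higher with library totals against control plasma, and 0.87 and 0.98 higher against C26-bearing plasma. With library totals 8 members passed as higher in each contrast, where 60.9% of the 207 miRNAs passed and 37.2% passed as higher in TMVs. TMVs and plasma vesicles differ in the fluid they came from and were deposited in separate tables, and the parts of these in the differences cannot be told apart.

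**Figure D1:**
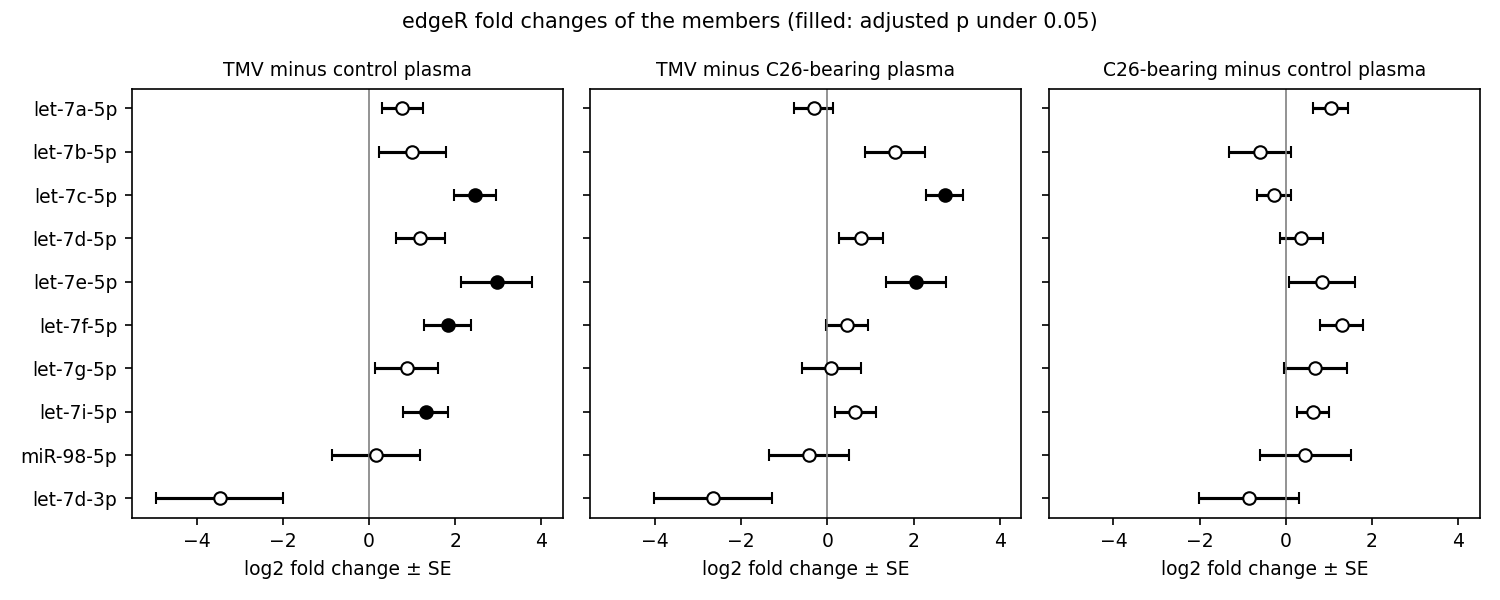
Log2 fold change (x axis, with SE bars) of each member (y axis) in edgeR for TMV minus control plasma, TMV minus C26-bearing plasma and C26-bearing minus control plasma; filled points passed an adjusted p of 0.05. Let-7c-5p and let-7e-5p are filled in both TMV panels, let-7f-5p and let-7i-5p in the first only, and no point is filled in the plasma panel.

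Neighbours of the family on the chromosome did not all share the direction of the let-7 member beside them. MiR-100, miR-125b and the miR-99 pair are encoded beside let-7 hairpins, and miR-99a, miR-99b and miR-100 share a seed of their own. In TMVs minus control plasma, miR-99b-5p had a log2 fold change of 2.97 (edgeR adjusted p = 0.00315), miR-100-5p one of 2.81 (edgeR adjusted p = 0.00114) and miR-125b-5p one of 3.43 (edgeR adjusted p = 0.000650). MiR-99a-5p fell by 3.44 on the log2 scale (edgeR adjusted p = 0.00213), although its hairpin lies 656 bases from Mirlet7c-1. MiR-125a-5p, 367 bases from Mirlet7e, had a value of 0.24 that did not pass. Let-7c-5p can come from either of its hairpins, and the mature sequence does not tell them apart.

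The make-up of the family differed between TMVs and plasma. In TMVs let-7i supplied 30.6%, let-7c 23.8%, let-7f 14.2%, let-7b 13.6% and let-7g 9.32% of the members' counts on average. Let-7c supplied 6.28% in C26-bearing and 10.2% in control plasma, and its TMV share of 23.8% ± 2.77 (SD, n = 3) did not overlap with either. With 0.5 added to each count, 12 of the 45 ratios between 2 members (26.7%) did not overlap between TMVs and all plasma libraries. Of all ratios between 2 tested miRNAs, 44.5% did not. Without the 0.5, the ratio of let-7d-5p to let-7d-3p, counted among the 12, overlapped. It was 4.00 to 4.19 in TMVs and reached 4.06 in C26-bearing plasma.

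**Figure D2:**
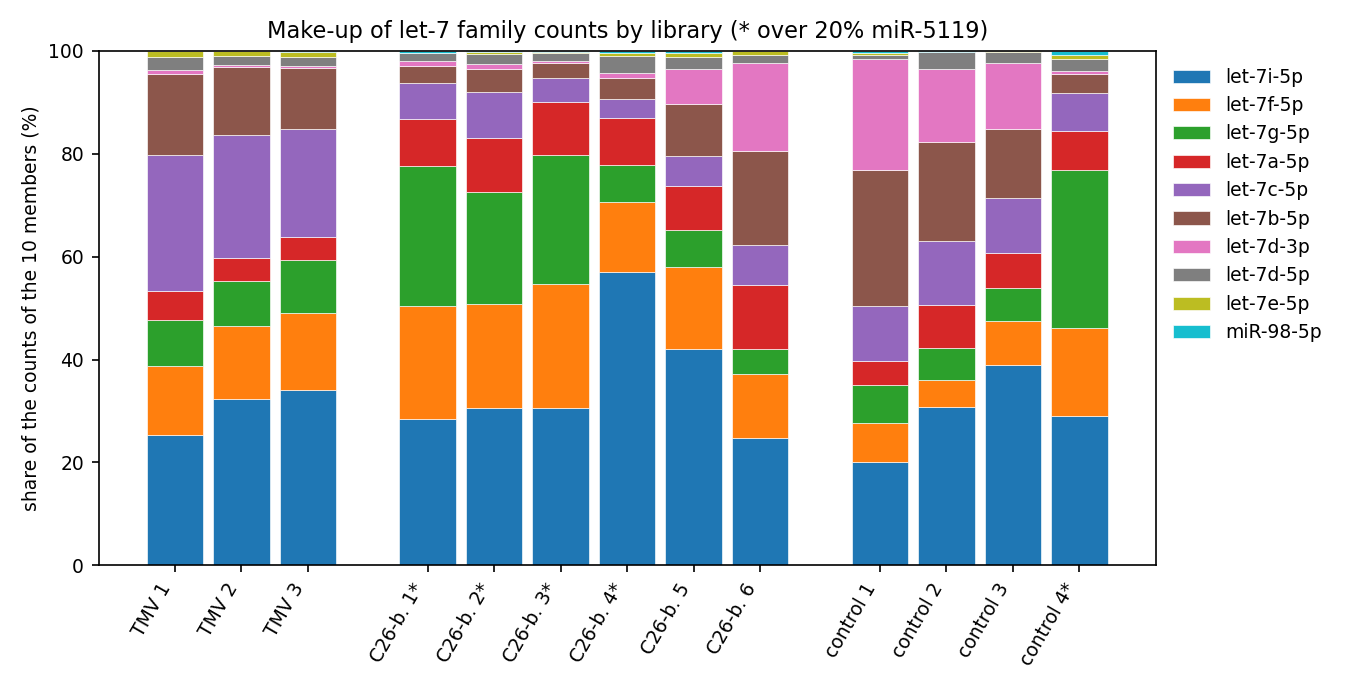
Share of the counts of the 10 members (y axis, percent) held by each member in every library (x axis; TMV, then C26-bearing, labelled C26-b., then control plasma; an asterisk marks libraries with over 20% miR-5119). Let-7c-5p is broad in the 3 TMV bars, and let-7b-5p with let-7d-3p is broad in plasma bars without an asterisk and narrow in those with one.

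The balance of the let-7d arms differed widely among the plasma libraries. In miRNA usage, 1 arm of a hairpin is usually kept and the other degraded, and the 3p share of let-7d counts measures that balance within a library without any scaling between libraries. The 3p share was 20.0%, 19.3% and 19.7% in TMV replicates 1 to 3, so the TMV libraries hardly differed. Among C26-bearing plasma libraries (replicates 1 to 6) the share was 36.4%, 30.3%, 19.8%, 20.8%, 75.2% and 91.1%, and among control plasma libraries (replicates 1 to 4) 95.9%, 81.5%, 85.9% and 20.0%. The low plasma values were those of C26-bearing replicates 1 to 4 and control replicate 4, and the last rests on 10 counts, with a 95% Wilson interval of 5.67% to 51.0%. In C26-bearing replicate 6 the interval was 88.3% to 93.3% and in control replicate 1 it was 94.8% to 96.8%. These intervals cover counting error only.

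The tumour groups overlapped. The mean 3p share was 45.6% ± 30.1 (SD, n = 6) in C26-bearing and 70.9% ± 34.4 (SD, n = 4) in control plasma, a difference of -25.3 points (two-sided exact permutation p = 0.267, adjusted over 3 pairs of groups 0.267). Without control replicate 4 the difference was -42.2 points (exact permutation p = 0.0714, adjusted 0.1). Within the libraries poor in miR-5119, the means were 83.1% in the 2 C26-bearing and 87.8% in the 3 control libraries, and within the rich ones the 4 C26-bearing libraries ran from 19.8% to 36.4% beside 20.0% in the single control. TMVs averaged 19.6% ± 0.377 (SD, n = 3), a difference of -51.2 points from control plasma (exact permutation p = 0.114, adjusted 0.171) and of -25.9 points from C26-bearing plasma (exact permutation p = 0.0476, adjusted 0.143). With 3 against 4 libraries the smallest possible exact permutation p is 0.0571, so TMVs against control plasma could not pass 0.05. With 3 against 6 libraries the smallest is 0.0238.

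The split by miR-5119 left no overlap. The 3p share was 19.8% to 36.4% in the 5 miR-5119-rich libraries and 75.2% to 95.9% in the other 5. Of 29 hairpins with at least 10 counts over both arms in every plasma library, 2 (6.9%) did not overlap in this split, let-7d and miR-30a, and none did not overlap between C26-bearing and control plasma. The difference of -60.5 points between the means of rich and other libraries was the largest in size of the 29, ahead of miR-139, whose arms differed by 41.9 points with overlapping ranges. The summed red cell markers, given above, did not overlap in this split either. Among them only miR-486a-5p did not overlap, at 17047 to 41708 TMM-scaled CPM in the rich and 147128 to 579105 in the other libraries. MiR-451a overlapped, at 17583 to 48997 in the rich and 14452 to 41569 in the others, as did miR-144-3p and miR-144-5p. The part of these markers in the arm balance was not tested.

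The difference lay in the 3p arm. Let-7d-5p took 0.121% ± 0.0458 of counts in the miR-5119-rich and 0.126% ± 0.0442 in the other plasma libraries (SD, n = 5 each). Let-7d-3p took 0.0402% ± 0.0146 of counts in the rich and 0.926% ± 0.405 in the other libraries. In TMVs let-7d-5p took 0.535% and let-7d-3p 0.131%. In control replicate 1 the 3p arm had 1462 counts and the 5p arm 62, and in C26-bearing replicate 2, which is rich in miR-5119, the 3p arm had 44 and the 5p arm 101.

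**Figure D3:**
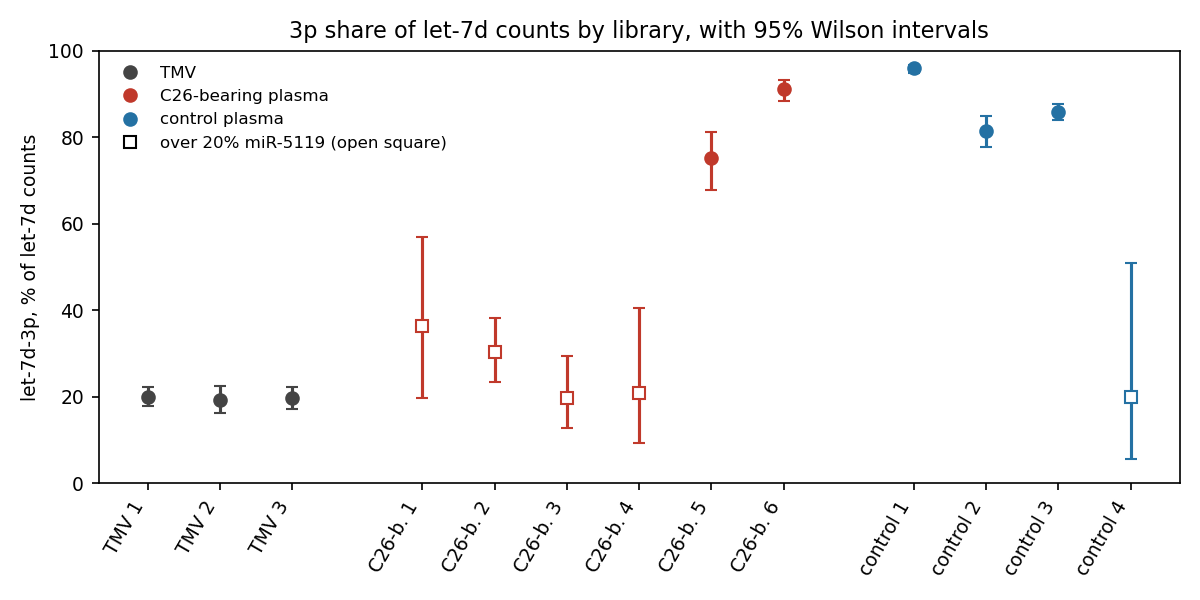
Let-7d-3p as a percent of all let-7d counts (y axis) in each library (x axis; TMV, C26-bearing and control plasma), with 95% Wilson intervals; open squares are libraries with over 20% miR-5119. The open squares lie between 19.8% and 36.4% beside the TMV points, and the filled plasma points lie between 75.2% and 95.9%.

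Pooled 3p shares were lower for the other hairpins that could be measured. Pooled over the libraries of a group, the 3p share for let-7b, let-7e, let-7g, let-7i and miR-98 was at most 1.27% in TMVs, 7.69% in C26-bearing plasma (let-7e, with 5 counts of its 3p arm) and 1.13% in control plasma (let-7b). In single plasma libraries the share reached 22.7% for let-7e and 11.1% for miR-98 in C26-bearing plasma and 7.69% for let-7b in control plasma, where few counts lie behind each. The let-7a, let-7c and let-7f hairpins share mature sequences and were not measured in this way. The let-7b 3p arm had 16 counts in TMVs, 12 in C26-bearing and 42 in control plasma, and the let-7i 3p arm had 5, 1 and 0. The mature sequences of let-7a-1-3p and let-7c-2-3p are identical in the RefSeq table. The deposited counts put 66 in TMVs, 26 in C26-bearing and 49 in control plasma under let-7a-1-3p, and 0 in plasma under let-7c-2-3p, so a count under the first name does not tell which hairpin it came from.

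Let-7b-5p moved with let-7d-3p. Let-7b levels, as TMM-scaled CPM from the plasma fit (counts scaled to a common library size), were for C26-bearing plasma 1662, 2869, 2946, 2441, 5396 and 17497 and for control plasma 15940, 7352, 7777 and 2073, in replicate order. Let-7d-3p levels in TMM-scaled CPM were for C26-bearing plasma 429, 551, 404, 509, 3629 and 16132 and for control plasma 12847, 5518, 7308 and 346. For both, the 5 miR-5119-rich libraries were the lowest 5, whichever group they came from. Of the 130 miRNAs tested in plasma, 26.2% did not overlap between rich and other libraries, 16.9% as lower in the rich ones, and let-7b and let-7d-3p were the only 2 of the 10 members that did not.

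Let-7g-5p had the opposite order. It supplied 22.4% of the members' counts in the miR-5119-rich libraries and 6.40% in the others, with ranges of 7.18% to 30.6% and 4.79% to 7.35% that overlapped narrowly. The ratio of let-7b to let-7g counts was 1.15 to 1.77 in TMVs, 0.112 to 0.585 in the rich plasma libraries and 1.43 to 3.85 in the other plasma libraries. Of the 45 ratios between members, 17 (37.8%) did not overlap between rich and other libraries, against 26.2% of all ratios between 2 tested miRNAs. Of the 17, 9 involved let-7d-3p and 8 involved let-7b, with the ratio of let-7b to let-7d-3p counted in both. The remaining ratio was that of let-7c to let-7g.

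The members' order from lower to higher share in the libraries poor in miR-5119 went with base composition. The ratio of the mean share of members' counts in those libraries to that in the rich ones was 0.286 for let-7g, 0.479 for miR-98 and 0.514 for let-7f, which have 7 or 8 G or C bases of 22. It was 0.876 for let-7a, with 8, and 0.892 for let-7i, 0.939 for let-7d-5p, 1.14 for let-7e and 1.48 for let-7c, each with 9. It was 4.74 for let-7b, with 10, and 20.1 for let-7d-3p, with 11. This order is a description over 10 members that share their libraries, and the part of base composition was not tested.

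No member passed the main test between C26-bearing and control plasma. In edgeR none of the 130 miRNAs tested passed an adjusted p of 0.05 (0% called), members included, and 15 (11.5%) had an unadjusted p under 0.05, among them let-7a and let-7f. DESeq2 called 4 miRNAs, none a member, and limma voom 17 (13.1%), of which 2 were members. The log2 fold change was above 0 for 7 of the 10 members, against 50.8% of all 130, and the median was 0.54 for the members and 0.01 for all.

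Let-7f-5p had the largest value of the 10, with a log2 fold change of 1.30 ± 0.50 (edgeR adjusted p = 0.395), and limma voom called it at 1.53 (limma adjusted p = 0.0317). Its TMM-scaled CPM, in replicate order, was 10989, 12881, 25211, 7935, 8457 and 11793 for C26-bearing plasma and 4587, 2019, 4910 and 9676 for control plasma. Control replicate 4, the miR-5119-rich control, lay among the C26-bearing libraries. As a share of all counts, let-7f was 0.794% to 1.61% in C26-bearing and 0.235% to 0.703% in control plasma and did not overlap. It was 1 of the 2 miRNAs (1.54% of the 130) without overlap in share. Leaving out control replicate 4 gave a log2 fold change of 1.96 and leaving out control replicate 2 gave 0.89, and neither passed in edgeR. Over all 26 alternatives the fold change of let-7f ran from 0.50 to 1.96.

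Let-7a-5p had a log2 fold change of 1.04 ± 0.41 (edgeR adjusted p = 0.395). In replicate order its TMM-scaled CPM was 4610, 6691, 10693, 5290, 4544 and 11898 for C26-bearing plasma and 2742, 3237, 3894 and 4320 for control plasma. All 6 C26-bearing libraries lay above all 4 controls, by a narrow gap between C26-bearing replicate 5 and control replicate 4. Let-7a was the only 1 of the 130 miRNAs (0.769%) with this order. In the TMM scaling of all 13 libraries the groups overlapped, with C26-bearing replicate 1 at 4394 and control replicate 3 at 5001. As a share of all counts, let-7a was 0.446% to 1.05% in C26-bearing and 0.248% to 0.525% in control plasma, and the groups overlapped. The fold change stayed above 0 under each of 26 alternatives, from 0.59 to 1.34, and passed under none of them.

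The other members did not pass in edgeR either. Let-7i in TMM-scaled CPM averaged 24063 ± 7272 for C26-bearing (SD, n = 6) and 15649 ± 4904 for control plasma (SD, n = 4), with a log2 fold change of 0.62 ± 0.37 (edgeR adjusted p = 0.609). Let-7c averaged 4421 ± 1891 in C26-bearing and 5340 ± 1056 in control plasma, with a log2 fold change of -0.27 ± 0.40. The log2 fold change was 0.69 ± 0.73 for let-7g, 0.36 ± 0.50 for let-7d-5p, 0.84 ± 0.76 for let-7e and 0.45 ± 1.06 for miR-98. Over the alternatives let-7e ran from 0.10 to 1.86, the highest within the libraries poor in miR-5119. MiR-98 ran from 0.11 to 3.60, the highest in limma voom (limma adjusted p = 0.0646). MiR-98 had 3 to 16 counts per C26-bearing and 0 to 30 per control library, and the 0, in control replicate 3, allows up to 22.8 CPM before TMM scaling.

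Let-7b and let-7d-3p had negative values that turned with the split. Their log2 fold changes were -0.60 ± 0.72 and -0.86 ± 1.17. With a term for the miR-5119-rich libraries they were 0.19 for let-7b and 0.27 for let-7d-3p, and neither passed. Within the other 5 libraries, 2 C26-bearing and 3 control, they were 0.21 and 0.27, and neither passed. Within the 5 rich ones they were 0.20 and 0.41, but these set 4 C26-bearing libraries against a single control with 2 counts of let-7d-3p. Limma voom called let-7d-3p at -2.95 (limma adjusted p = 0.0317), without a term for the split.

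**Figure D4:**
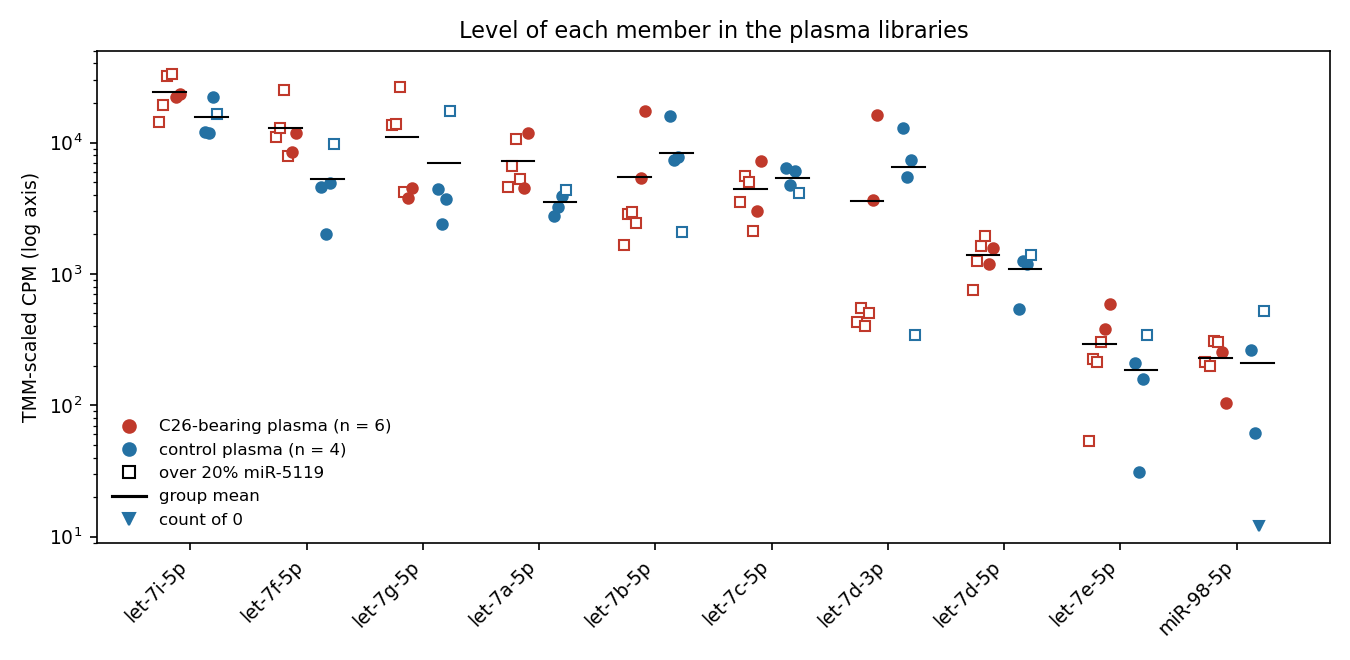
TMM-scaled CPM on a log axis (y axis) of each member (x axis) in the C26-bearing (n = 6) and control (n = 4) plasma libraries; lines are group means, open squares are libraries with over 20% miR-5119, and a triangle marks a count of 0, drawn at an arbitrary height. All C26-bearing points of let-7a-5p lie above the control points, and for let-7b-5p and let-7d-3p the open squares of both groups lie at the bottom.

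The ratio of let-7a to let-7c counts separated the plasma groups. These 2 miRNAs differ at a single base, A19G, and their ratio needs no scaling. It was 0.213, 0.187 and 0.210 in TMV replicates 1 to 3. For C26-bearing plasma it was 1.30, 1.20, 2.14, 2.48, 1.52 and 1.63 and for control plasma 0.429, 0.677, 0.645 and 1.04, in replicate order. The ratio was higher in every C26-bearing library than in every control, also within the libraries poor in miR-5119 (1.52 and 1.63 in C26-bearing, 0.429 to 0.677 in control) and within the rich ones (1.20 to 2.48 in C26-bearing, 1.04 in control). The TMV libraries lay below all plasma libraries. This was the only ratio of the 45 (2.22%) without overlap between the plasma groups, close to the 2.56% of the 8385 ratios between all tested miRNAs, so it is not a result about the family. It was singled out after its values were seen, and no test was made.

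The summed level of the 10 members in plasma varied most like that of miR-186-5p, with a Pearson correlation of log2 TMM-scaled CPM of 0.87 over the 10 plasma libraries. The next were miR-191-5p at 0.80, miR-103-3p at 0.71, miR-21a-5p at 0.54 and miR-7a-5p at 0.50. These are descriptions over libraries that share their depth differences and the miR-5119 split, and 3 of these 5 were also among the 5 highest by Spearman correlation.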

How the data were processed

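Small RNA was sequenced in 13 libraries. The authors deposited raw counts per mature miRNA, whole numbers with a different total in each library, in 1 table of 1164 miRNAs for TMVs and 1 of 1354 for plasma. Tools listed in the submitters' processing notes are cutadapt 1.10 and bcl2fastq. No source used here gives the aligner, counting tool, miRNA annotation, genome build or handling of reads that fit several miRNAs. Titles gave the groups and replicate numbers. The members, lists and split were chosen with earlier results of these data known, and all 10 members are named.

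Counts were tested with edgeR 4.0.16 in R 4.3.3 (filterByExpr by group with a minimum count of 10, TMM factors, robust quasi-likelihood fit, Benjamini-Hochberg adjustment over all miRNAs tested, threshold 0.05). Plasma was fitted alone (130 miRNAs) and TMVs in a fit of all 13 libraries over miRNAs in both tables (207 miRNAs). The fits were also run on simulated counts. These had less spread between libraries than the data and no miR-5119 split, so they do not show how the fits behave here. The let-7d 3p share was compared by exact permutation of libraries with scipy 1.17.1 (Python 3.11.15, numpy 2.4.6, pandas 2.3.3). Shares of counts and ratios between members are descriptions. Hairpin positions and hosts are from RefSeq GRCm38.p6 and GENCODE for GRCm38.

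Alternatives were other scalings and filters, DESeq2 1.42.0, limma 3.58.1 voom with quality weights, a replicate block, each library left out, controls 2 and 3 (whose descriptions carry 2 numbers each) left out, and fits with a term for, or within, the miR-5119 split. Depth was 7962 to 170571 counts, and 3 counts, the limit that a count of 0 allows, equal 17.6 to 377 CPM. The labels name no molecular identifiers.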

Additional observations from a re-analysis of the deposited data

Results flagged for a closer look

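In 46 sets of 4 to 10 values (members in plasma groups), 5 held a library far from the nearest other value, and chance flags about 1 in 20 such sets. In C26-bearing plasma, let-7b-5p at 17497 and let-7d-3p at 16132 TMM-scaled CPM stood apart in replicate 6, which is poor in miR-5119, and let-7f-5p stood apart at 25211 TMM-scaled CPM in replicate 3, which is rich in it. In control plasma, let-7g-5p stood apart in replicate 4, the miR-5119-rich control, at 17279 TMM-scaled CPM and at 30.6% of the members' counts. The part of the split in these values was not tested.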

How the results depend on the processing

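Between plasma groups 0 miRNAs passed in edgeR, against 4 with no filter, 4 in DESeq2 and 17 in limma voom (2 of them members). With a term for the miR-5119 split 2 passed, in the fit of all 13 libraries 1, and with a library left out 0 to 1. Let-7b and let-7d-3p changed sign with the split term (0.19 and 0.27), within the poor libraries (0.21 and 0.27) and within the rich ones (0.20 and 0.41). The rich libraries hold a single control. Let-7d-5p was -0.050 and let-7g -0.31 within the rich libraries, and let-7g was -0.053 without both controls with 2 numbers. Against control plasma, 4 members passed in TMVs, against 8 with library totals, 7 in DESeq2, 9 in limma voom and 7 with only poor libraries (60.9%, 61.4%, 69.6% and 56.5% of all miRNAs passed in these fits, in that order), and 3 to 4 with a library left out; miR-98 turned to -0.052, -0.18 and -0.75 without TMV replicate 3, control replicate 2 and control replicate 3, in a range of -0.75 to 0.80 with a library left out. Against C26-bearing plasma, 2 members passed, against 8 with library totals, 5 in DESeq2, 5 in limma voom, 6 with only the 2 groups fitted (60.9%, 61.4%, 68.1% and 60.5% of all miRNAs passed, in that order) and 1 to 3 with a library left out, and 165 miRNAs passed with no filter, against 103. In that contrast let-7a turned to 0.020 with RLE factors, 0.97 with totals, 0.24 with no filter, 0.017 in DESeq2 and 0.51 with 2 groups; miR-98 to 0.73 with totals, 0.079 with no filter, 0.039 with poor libraries and 0.38 with 2 groups; and let-7g to -0.049, -0.091 and -0.064 without C26-bearing replicate 4, 5 or 6, in a range of -0.091 to 0.60 with a library left out. The cause of these changes was not tested. Same-numbered plasma libraries correlated at -0.37, -0.29, -0.30 and 0.16. The first 3 pairs set a miR-5119-rich library against a poor one, and the last joined 2 rich ones. These values thus cannot show whether the numbers pair the libraries. With a replicate block 0 miRNAs passed in plasma, and 6 members passed in TMVs against control plasma, where 55.1% of all miRNAs passed. With the same block 3 members passed against C26-bearing plasma, where 53.1% of all miRNAs passed and let-7g was -0.16. On TMM-scaled CPM the family mean was 14.8% in TMVs and 8.54% in C26-bearing plasma, and the 2 groups overlapped. Without miR-5119 the family share was 9.66% in C26-bearing plasma. Of the 5 most similar miRNAs, 3 remained by Spearman correlation. The lowest adjusted exact permutation p of the let-7d arm differences was 0.0714, on log2 ratios of the arms for TMV against C26-bearing plasma. It came from an exact p of 0.0238, the smallest these libraries allow, with 0.5 added to each count. Without the 0.5 these groups overlapped. TMVs against control plasma, with all libraries or with 1 left out, hold too few libraries for an exact p under 0.05. The same holds for TMVs against C26-bearing plasma without a TMV library, and for comparisons with only poor libraries. Such comparisons say nothing about stability. Let-7e and miR-98 fell below the filter in some plasma fits and have no value there. Depth limits the rarest members most.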
